A study of Homo sapiens with 6 samples.

Results

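Cells write and remove methyl marks on histones and DNA with a limited set of enzymes, and 59 genes of this machinery were followed in TC28a2 cells after inhibition of histone deacetylases (HDACs). The members were chosen by name: Polycomb subunits, histone lysine methyltransferases and demethylases, DNA methyltransferases with *UHRF1*, TET enzymes, and 3 protein arginine methyltransferases. Each of the 59 names was found once among the 60623 genes of the count table, and all 59 genes passed the expression filter. TC28a2 is an immortalized human chondrocyte line, so all samples come from a single line in culture. Of each condition, 3 samples were sequenced, described by the study as independent experiments: cells given 2 μM mocetinostat, an inhibitor selective for class I HDACs, for 24 hours, and cells given its solvent DMSO for the same time. Total counts ranged from 4873426 to 11031132 per DMSO-treated sample and from 1619344 to 5089542 per mocetinostat-treated sample, so the treated libraries were the shallower ones on the whole and low values were less precise there. Of 10 chondrocyte markers, 7 passed the expression filter; the summed level of the 10 was 113 to 137 CPM (normalized counts relative to library size) with DMSO, most of it *SOX9*, with *COL2A1* at 1.46 to 2.80 CPM and *COL9A1*, *COL11A1*, and *SOX6* below the filter, against 4654 to 5627 CPM for 5 fibroblast markers, most of it *COL1A1*, and 899.5 to 1083 CPM for 5 epithelial markers, nearly all *KRT8* and *KRT18*. The blood cell markers together stayed under 10 CPM in every sample, and the 5 endothelial markers summed to between 5.61 and 8.12 CPM with DMSO and between 41.52 and 46.8 CPM with mocetinostat. With mocetinostat the chondrocyte markers summed to 252 to 291 CPM, the fibroblast markers to 4307 to 4691 CPM, and the epithelial markers to 1935 to 1988 CPM; their part in the results was not tested.

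Histone methylation works through writers, erasers, and readers. Polycomb repressive complex 2 (PRC2) places the repressive methyl mark on lysine 27 of histone H3, and Polycomb repressive complex 1 (PRC1) reads it through its CBX subunits and adds ubiquitin to histone H2A. Most proteins of the KMT2 and SETD1 families methylate lysine 4 of histone H3 at active promoters and enhancers, the SUV39H, EHMT, and SETDB enzymes methylate lysine 9 in silent chromatin, and the NSD enzymes and SETD2 methylate lysine 36 in and around transcribed genes. In DNA, DNMT1 copies methylation after replication with the help of UHRF1, DNMT3A and DNMT3B set it anew, and the TET enzymes oxidize it as the first step of its removal.

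After mocetinostat treatment, most of the machinery was lower relative to all transcripts. When *GAPDH* set the scale, fewer members were lower than higher, but that scale raised the log2 fold changes of all genes. With edgeR's quasi-likelihood test across all genes and Benjamini-Hochberg adjustment, 36 of the 59 genes fell and 10 rose at an adjusted p under 0.05, while 13 did not pass. Below, "rose" and "fell" are used only for genes past this test, and log2FC stands for the log2 fold change of mocetinostat over DMSO. Over all 13966 genes tested, 31.4% fell and 32.9% rose, against 61.02% and 16.9% of the members. The median log2 fold change of the members was -0.48, against -0.0021 over all genes tested. With the study's second threshold, an absolute log2 fold change over 1, 11 members were downregulated genes (DRGs) and 5 were upregulated genes (URGs), where 8.18% of all genes tested were DRGs and 20.2% were URGs. Among the 11159 genes whose mean level was at least that of the lowest member, 6.89 CPM, 37.4% fell, 30.3% rose, 8.67% were DRGs, and 14.8% were URGs. The values of the 3 mocetinostat-treated samples lay below all 3 DMSO-treated samples for 34 members and above them for 12, compared with 32.8% and 33.7% of all genes tested. For a single gene, an exact two-sided permutation test of 3 samples against 3 cannot give a p under 0.1.

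**Figure D1:**
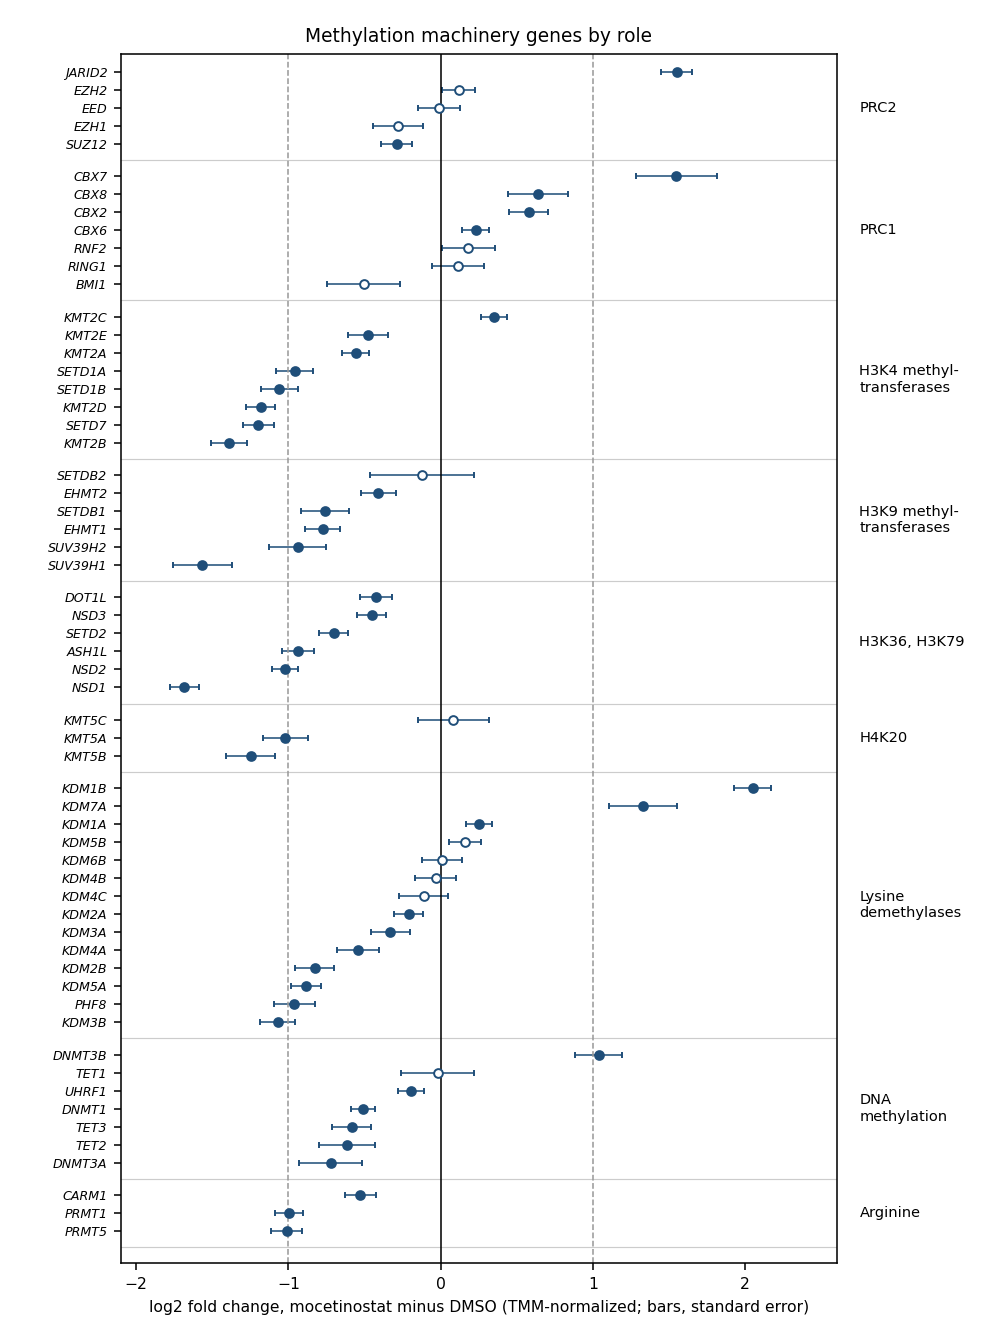
Log2 fold change (x axis, mocetinostat minus DMSO, TMM-normalized) of the 59 genes, grouped by role and ordered within each role; bars are standard errors from the edgeR fit on 3 samples per condition, filled points passed an adjusted p of 0.05, open points did not, and dashed lines mark log2 fold changes of -1 and 1. The methyltransferases of lysines 4, 9, and 36 lie mostly to the left, the CBX subunits to the right, and the range runs from -1.68 for NSD1 to 2.05 for KDM1B; scaling to GAPDH moved the points right by about 0.54.

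These directions are relative to the bulk of the transcripts. CPM values are relative to the scaled library size of each sample, and the counts hold no measure of RNA per cell. In a bulk culture, fewer cells expressing a gene and less RNA of it per cell cannot be told apart. *GAPDH*, a glycolytic enzyme often used as a reference gene, itself fell (log2FC -0.53, adjusted p = 2.58e-12), from 3132, 3032, and 2953 CPM to 2034, 2187, and 2111 CPM. Scaling each library to *GAPDH* therefore raised all log2 fold changes, by a median of 0.54, and under that scaling 16 members fell, 21 rose, and the median of the members was 0.06, where the median of all genes tested was 0.53. With the fold threshold added, 2.03% of all genes tested were DRGs and 31.7% URGs under it, against 3.39% and 11.9% of the members. Shares of all genes without the fold threshold are not given for it. Counts of genes that fell or rose under *GAPDH* scaling, here and below, hold this shift of all genes. This scaling shifts all genes by nearly the same amount, so the sign of the members' median depended on it, while its place relative to other genes could not. Several members are expressed with the cell cycle, and cell-cycle genes were read beside them. Of 12 genes of G2 phase and mitosis, 12 fell and 10 were DRGs, with a median log2FC of -1.17 that was -0.64 under *GAPDH* scaling; the proliferation marker *MKI67* went from 1341 ± 80.4 to 681 ± 5.80 CPM (SD, n = 3) and *CCNB1*, the mitotic cyclin, from 251 ± 27.47 to 72.4 ± 1.54 CPM (SD, n = 3). Of 12 genes of S phase, 9 fell, 1 rose, and the median log2FC was -0.51, which became 0.03 under *GAPDH* scaling; the replication clamp *PCNA* went from 444 ± 21.8 to 394 ± 22.9 CPM (SD, n = 3) and *MCM2*, a subunit of the replicative helicase, from 364 ± 28.3 to 239.8 ± 8.28 CPM (SD, n = 3). The part of this shift in the members' values was not tested.

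Short promoter motifs of cell-cycle genes were looked for in the 250 bases before the start of each member, as given by RefSeq for GRCh38.p14, where 54 of the 59 members had an entry; *CBX2*, *CBX8*, *SETD1B*, *NSD3*, and *DOT1L* had none. The E2F motif was searched as TTTCCCGC, TTTCGCGC, TTTGCCGC, or TTTGGCGC and the CHR motif as TTTGAA, each on both strands; in the stretches printed below no match of one overlaps a match of the other. The E2F motif was found in 5 members, or 9.26%, and in 2.79% of 27305 promoters of the same length. The CHR motif was found in 4 members, or 7.41%, and in 13.6% of all promoters. The promoters of this comparison were not limited to expressed genes. Of the members past both thresholds, *NSD2* and *KDM1B* held an E2F motif, and these were a DRG and a URG, respectively. The others with it were *SUZ12*, *EZH1*, and *UHRF1*. Each gene was searched before the start of a single RefSeq entry, which need not be the first start of the gene. That of *UHRF1* lay inside the gene, and the stretch around its motif held 71 exonic bases of *UHRF1*. A match describes these letters only and is not a binding site.

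Promoter stretches around these motifs are shown for the DRG and the URG that hold the E2F motif, because they moved in opposite directions, and, chosen after their values were seen, for the pair of PRC2 genes that hold it; they run 5′ to 3′ on the gene's strand, capitals mark the E2F and CHR motifs (reverse complements where the match was on the other strand), and none of the stretches overlaps an exon in GENCODE release 44.
*NSD2* (chr4:1871231-1871350, plus strand, 162 to 43 bases before the start): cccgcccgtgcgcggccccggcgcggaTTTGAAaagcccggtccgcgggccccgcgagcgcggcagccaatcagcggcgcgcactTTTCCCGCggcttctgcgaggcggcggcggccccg
*KDM1B* (chr6:18155172-18155291, plus strand, 250 to 131 bases before the start): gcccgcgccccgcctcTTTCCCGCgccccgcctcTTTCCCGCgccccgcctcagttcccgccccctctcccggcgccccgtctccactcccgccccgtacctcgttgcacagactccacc
*SUZ12* (chr17:31936769-31936888, plus strand, 238 to 119 bases before the start): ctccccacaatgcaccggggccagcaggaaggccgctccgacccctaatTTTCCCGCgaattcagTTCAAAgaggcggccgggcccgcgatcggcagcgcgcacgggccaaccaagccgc
*EZH1* (chr17:42745092-42745211, minus strand, 171 to 52 bases before the start): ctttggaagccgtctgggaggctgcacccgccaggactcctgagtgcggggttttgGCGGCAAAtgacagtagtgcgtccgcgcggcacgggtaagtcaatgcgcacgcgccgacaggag
*NSD2* holds an E2F and a CHR motif, *KDM1B* holds the E2F motif in 2 copies, *SUZ12* holds both motifs, and *EZH1* holds the E2F motif alone. The log2FC values of the 4 genes were -1.02, 2.05, -0.29, and -0.28, the last with an adjusted p of 0.133. *UHRF1*, the other member with an E2F motif, was at -0.19, so *KDM1B* alone was above 0. The letters of *EZH1* were TTTGCCGC, those of the other genes shown TTTCCCGC. Any part of the motifs in these values was not tested.

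Among the 5 PRC2 genes, *JARID2* rose, *SUZ12* fell, and the other 3 did not pass the test. *JARID2*, an accessory subunit that helps to bring PRC2 to chromatin (ENSG00000008083, chromosome 6 of GRCh38 from 15246069 to 15522042), had 62.2, 57.9, and 68.8 CPM in DMSO replicates 1, 2, and 3 and 195, 174, and 183 CPM in mocetinostat replicates 1, 2, and 3. The treated samples stood apart from the controls, and the change was 2.93-fold, with a log2FC of 1.55 (SE 0.10, adjusted p = 1.59e-22). *EZH2*, the main catalytic subunit, had 95.98, 90.6, and 91.7 CPM with DMSO and 106, 96.1, and 98.2 CPM with mocetinostat. Although the treated samples were all slightly above the controls, its log2FC of 0.12 (SE 0.11, adjusted p = 0.338) did not pass the test. *EZH1*, its paralog, had 37.1, 35.4, and 32.9 CPM with DMSO and 36.1, 18.6, and 26.9 CPM with mocetinostat, with mocetinostat replicate 2 the lowest, and a log2FC of -0.28 (SE 0.16, adjusted p = 0.133). It passed the test without mocetinostat replicate 1, with a log2FC of -0.60 (adjusted p = 0.00991), and without an expression filter, with -0.53 (adjusted p = 0.00554). *EED*, which binds the methyl mark, had a log2FC of -0.01 (adjusted p = 0.949). *SUZ12*, the scaffold subunit, fell from 132, 128, and 113 CPM to 107, 89.9, and 105 CPM, a log2FC of -0.29 (SE 0.10, adjusted p = 0.0119) that missed the threshold after thinning of the libraries to equal depth (adjusted p = 0.107). The median of the 5 genes was -0.01, and 0.52 under *GAPDH* scaling, where 3 genes rose, none fell, and *SUZ12*, *EED*, and *EZH1* had log2FC values of 0.25, 0.52, and 0.26.

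In PRC1, 4 of the 7 genes rose and none fell, and the 4 were the CBX subunits, which read methylated lysine 27. The count was sensitive to the method, since 2 rose and none fell with DESeq2, where *CBX6* (adjusted p = 0.109) and *CBX8* (adjusted p = 0.0592) missed the threshold, and 2 rose and 1, *BMI1*, fell without an expression filter. The median log2FC of the 7 was 0.23 but -0.02 without an expression filter, and under *GAPDH* scaling 6 rose. *CBX7* (ENSG00000100307, chromosome 22 of GRCh38 from 39120167 to 39152680), the subunit with the fewest counts in the controls, had 5.16, 5.62, and 7.22 CPM in DMSO replicates 1, 2, and 3 and 16.9, 11.8, and 22.8 CPM in mocetinostat replicates 1, 2, and 3. No treated sample overlapped a control, and the 2.92-fold rise had a log2FC of 1.55 (SE 0.26, adjusted p = 4.37e-07). On the other strand, ENSG00000279833 overlaps 17.9% of its exonic bases, and the strand of the reads was not known to be used in counting. *CBX2* had 42.2, 55.6, and 61.46 CPM with DMSO and 74.54, 83.7, and 79.6 CPM with mocetinostat and a log2FC of 0.58 (SE 0.13, adjusted p = 6.11e-05), and *CBX8* had 14.3, 13.3, and 20.9 CPM with DMSO and 21.2, 26.03, and 30.3 CPM with mocetinostat and a log2FC of 0.64 (SE 0.20, adjusted p = 0.00386). In both genes each treated sample lay above each control, and without mocetinostat replicate 3 the log2FC of *CBX8* was 0.49 and missed the threshold. *CBX6*, the most abundant of the 4, had a log2FC of 0.23 (SE 0.09, adjusted p = 0.0196), which was -0.02 without the filter. It missed the threshold without DMSO replicate 1 (log2FC 0.15), DMSO replicate 2 (0.22), or mocetinostat replicate 2 (0.12). The E3 ligase subunits were not among the genes that passed, with log2FC values of 0.11 for *RING1* (adjusted p = 0.577) and 0.18 for *RNF2* (adjusted p = 0.372). *BMI1*, the partner that activates them, had 16.01, 14.2, and 13.7 CPM with DMSO and 9.32, 8.06, and 13.7 CPM with mocetinostat and a log2FC of -0.51 (SE 0.24, adjusted p = 0.0589); DMSO replicate 3 and mocetinostat replicate 3 were nearly equal. *BMI1* passed as lower without DMSO replicate 3 (log2FC -0.58, adjusted p = 0.0433), without mocetinostat replicate 3 (-0.73, adjusted p = 0.0174), and without a filter (-0.76, adjusted p = 0.00884), and 22.8% of its exons are shared with the readthrough gene *COMMD3-BMI1*.

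The genes grouped by family as methyltransferases of lysine 4 were mostly lower: 7 of 8 fell, 4 as DRGs, and *KMT2C* rose, with a median log2FC of -1.01. *KMT2B* (ENSG00000272333, chromosome 19 of GRCh38 from 35717973 to 35738880), which acts at promoters, had 113, 141, and 146 CPM in DMSO replicates 1, 2, and 3 and 52.54, 44, and 53.46 CPM in mocetinostat replicates 1, 2, and 3. Its 2.62-fold lower level, from 133 ± 18.2 to 50 ± 5.22 CPM (SD, n = 3), had a log2FC of -1.39 (SE 0.12, adjusted p = 4.76e-17). *KMT2D*, an enzyme of enhancers, had 246, 343, and 304 CPM with DMSO and 129, 141, and 124 CPM with mocetinostat and a log2FC of -1.18 (SE 0.10, adjusted p = 3.92e-18). The control samples of both genes ranged widely, with DMSO replicate 1 the lowest, but all lay above the treated samples. *SETD7*, which places a single methyl group and also methylates proteins other than histones, had 160.2, 172, and 178 CPM with DMSO and 73.6, 76.8, and 72.53 CPM with mocetinostat and a log2FC of -1.20 (SE 0.10, adjusted p = 5.51e-17). *SETD1B*, one of the enzymes of bulk trimethylated lysine 4, had 91.46, 128, and 131 CPM with DMSO and 59.3, 52.1, and 53.9 CPM with mocetinostat and a log2FC of -1.06 (SE 0.12, adjusted p = 8.44e-12), and its paralog *SETD1A* 106, 141, and 151 CPM with DMSO and 59.9, 87.4, and 62.6 CPM with mocetinostat and a log2FC of -0.96 (SE 0.12, adjusted p = 1.58e-10). The paralogs differed by less than their standard errors, although only *SETD1B* was past the second threshold. *KMT2A*, a regulator of HOX genes, and *KMT2E* fell with log2FC values of -0.56 (adjusted p = 1.58e-07) and -0.48 (adjusted p = 0.00106), and 18.3% of the exonic bases of *KMT2A* are shared with ENSG00000285827 on the same strand. *KMT2C*, the paralog of *KMT2D*, had 199.7, 193, and 204 CPM with DMSO and 259, 269, and 235 CPM with mocetinostat, a log2FC of 0.35 (SE 0.08, adjusted p = 2.10e-04), so that these related enhancer enzymes differed in sign; without a filter *KMT2C* was at 0.10 (adjusted p = 0.45). Under *GAPDH* scaling 5 of the 8 genes fell, *KMT2C* rose, and the log2FC of *KMT2E* was 0.06.

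Of the 6 methyltransferases of lysine 9, 5 fell and none rose, with a median of -0.77. *SUV39H1* (ENSG00000101945, chromosome X of GRCh38 from 48695554 to 48709016), an enzyme of constitutive heterochromatin, had 44.3, 36.2, and 35.4 CPM in DMSO replicates 1, 2, and 3 and 14.47, 17.4, and 7.87 CPM in mocetinostat replicates 1, 2, and 3. Mocetinostat replicate 3 was the lowest, at 19 counts, and all treated samples were below the controls. The 2.96-fold lower level had a log2FC of -1.57 (SE 0.19, adjusted p = 5.78e-11), and with 1 sample left out in turn the log2FC lay between -1.72 and -1.35. On the other strand, ENSG00000232828 overlaps 21.2% of its exonic bases. *SUV39H2*, its paralog, had 37.1, 33.7, and 24.2 CPM with DMSO and 17.4, 14.3, and 16.99 CPM with mocetinostat and a log2FC of -0.94 (SE 0.19, adjusted p = 1.22e-05). *EHMT1* and *EHMT2* form the complex that methylates lysine 9 in euchromatin; *EHMT1* fell with a log2FC of -0.78 (SE 0.11, adjusted p = 7.00e-09) and *EHMT2* with a log2FC of -0.41 (SE 0.12, adjusted p = 0.00162), which missed the threshold after thinning (adjusted p = 0.0682). *SETDB1*, which silences retroelements, fell from 43.3 ± 2.33 to 26.7 ± 4.80 CPM (SD, n = 3), a log2FC of -0.76 (SE 0.16, adjusted p = 2.10e-05), where 12.9% of its exonic bases overlap *CERS2* on the other strand. *SETDB2* had 7.42, 5.41, and 7.37 CPM with DMSO and 3.77, 9.92, and 7.46 CPM with mocetinostat, values from 16 to 82 counts, and a log2FC of -0.12 (SE 0.34, adjusted p = 0.771); mocetinostat replicate 1 was the lowest and replicate 2 the highest of all 6 samples. Under *GAPDH* scaling *SUV39H1* was the only one of the 6 that passed, at -1.02, and the median was -0.23.

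The enzymes of lysine 36 and *DOT1L*, the methyltransferase of lysine 79, all fell, 6 of 6, with a median of -0.82. *NSD1* (ENSG00000165671, chromosome 5 of GRCh38 from 177131830 to 177300213), which places dimethylation outside gene bodies as well, had the lowest log2FC of the 59 genes, with 284, 272, and 291 CPM in DMSO replicates 1, 2, and 3 and 86.2, 75.6, and 99.9 CPM in mocetinostat replicates 1, 2, and 3. The controls had an SD of 9.36 CPM (n = 3) and lay far above the treated samples, whose level was 3.22-fold lower with a log2FC of -1.68 (SE 0.10, adjusted p = 8.99e-26). *NSD2*, whose promoter is shown above, had 278, 299, and 309 CPM with DMSO and 150.5, 142, and 142 CPM with mocetinostat and a log2FC of -1.02 (SE 0.09, adjusted p = 4.09e-17), while *NSD3*, the other paralog, fell from 168, 169.9, and 174 CPM to 115, 141, and 123 CPM, a log2FC of -0.45 (SE 0.10, adjusted p = 2.87e-05). The NSD genes thus fell to unequal degrees, with *NSD1* below *NSD2* and *NSD2* below *NSD3* in log2FC by more than their standard errors. *ASH1L*, which counteracts Polycomb, had a log2FC of -0.94 (SE 0.11, adjusted p = 2.74e-12), and *SETD2*, the enzyme of trimethylated lysine 36, a log2FC of -0.70 (SE 0.09, adjusted p = 6.52e-10). *DOT1L* had 109, 148, and 141 CPM with DMSO and 102, 99.2, and 93.2 CPM with mocetinostat and a log2FC of -0.42 (SE 0.11, adjusted p = 4.12e-04), the one nearest to 0 in the group; here the lowest control, DMSO replicate 1, was close to the highest treated sample. Under *GAPDH* scaling *NSD1* was still a DRG at -1.15, *NSD2* and *ASH1L* fell, and *NSD3* and *DOT1L* had values above 0.

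The 3 methyltransferases of lysine 20 of histone H4 fell in 2 cases, both DRGs, and *KMT5C* did not pass the test. *KMT5A* (ENSG00000183955, chromosome 12 of GRCh38 from 123384132 to 123409353), which places a single methyl group in mitosis, had 52.1, 51.4, and 52.2 CPM in DMSO replicates 1, 2, and 3 and 25.6, 30.4, and 21.96 CPM in mocetinostat replicates 1, 2, and 3. The controls were nearly equal, and the treated samples were 2.03-fold lower on average, with a log2FC of -1.02 (SE 0.15, adjusted p = 1.06e-08). *KMT5B*, which adds further methyl groups, had 49.1, 42.7, and 50.7 CPM with DMSO and 20.02, 14.9, and 24.04 CPM with mocetinostat and a log2FC of -1.25 (SE 0.16, adjusted p = 3.91e-10). *KMT5C*, the paralog of *KMT5B*, had 13.2, 17.3, and 10.3 CPM with DMSO and 12.49, 15.49, and 15.7 CPM with mocetinostat, overlapping values with a log2FC of 0.08 (SE 0.23, adjusted p = 0.775), and it held 25 to 146 counts. Under *GAPDH* scaling *KMT5A* and *KMT5B* still fell and *KMT5C* rose.

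Among the 14 lysine demethylases, 7 fell, 3 rose, and 4 did not pass the test, and the median of -0.16 was 0.37 under *GAPDH* scaling, where 3 fell and 8 rose. *KDM1B* (ENSG00000165097, chromosome 6 of GRCh38 from 18155329 to 18223854), a flavin-dependent demethylase of lysine 4, had the highest log2FC of the 59 genes. Its values were 32.8, 25.8, and 27.6 CPM in DMSO replicates 1, 2, and 3 and 124, 113, and 123 CPM in mocetinostat replicates 1, 2, and 3, so that every treated sample lay far above every control. It rose 4.14-fold, from 28.7 ± 3.65 to 119.9 ± 6.20 CPM (SD, n = 3), with a log2FC of 2.05 (SE 0.12, adjusted p = 1.67e-24). Its paralog *KDM1A*, the LSD1 subunit of complexes that also hold class I HDACs, had 184, 181, and 171 CPM with DMSO and 209.8, 219, and 209 CPM with mocetinostat, all treated samples above the controls, and a log2FC of 0.25 (SE 0.09, adjusted p = 0.00937). Its adjusted p missed the threshold without DMSO replicate 2, DMSO replicate 3, or mocetinostat replicate 2 (log2FC 0.23, 0.19, and 0.21), and its log2FC was just below 0 without the expression filter. *KDM7A*, which removes methyl groups from lysines 9 and 27, had 13.3, 9.58, and 5.89 CPM with DMSO and 21.8, 24.2, and 29.4 CPM with mocetinostat. The groups did not overlap, although the controls spread from 40 to 147 counts with DMSO replicate 1 the highest, and the 2.51-fold rise had a log2FC of 1.33 (SE 0.22, adjusted p = 4.10e-07). In the same subfamily, *PHF8* fell, with 73.9, 79.1, and 88.1 CPM with DMSO and 47.4, 27.3, and 43.52 CPM with mocetinostat and a log2FC of -0.96 (SE 0.14, adjusted p = 3.93e-09). *KDM3B* (ENSG00000120733, chromosome 5 of GRCh38 from 138352685 to 138437028), a demethylase of lysine 9, was the only DRG among the demethylases, with 119, 108, and 118 CPM in DMSO replicates 1, 2, and 3 and 57.3, 59.49, and 48.1 CPM in mocetinostat replicates 1, 2, and 3 and a log2FC of -1.07 (SE 0.12, adjusted p = 7.59e-13); its paralog *KDM3A* had a log2FC of -0.33 (SE 0.13, adjusted p = 0.0223), which missed the threshold without mocetinostat replicate 1 or 3 (log2FC -0.31 and -0.30), with DESeq2 (adjusted p = 0.0639), and after thinning (adjusted p = 0.29). *KDM5A*, which demethylates lysine 4, had 176, 166, and 175 CPM with DMSO and 95.2, 87.999, and 95.3 CPM with mocetinostat and a log2FC of -0.89 (SE 0.10, adjusted p = 1.84e-12), whereas *KDM5B* had 88.4, 90.6, and 97.6 CPM with DMSO and 106, 101, and 100.3 CPM with mocetinostat and a log2FC of 0.16 (SE 0.11, adjusted p = 0.185). *KDM2B*, which recruits a PRC1 variant to CpG islands, fell with a log2FC of -0.83 (SE 0.13, adjusted p = 5.82e-08), and *KDM2A*, its paralog, with a log2FC of -0.21 (SE 0.10, adjusted p = 0.0469). The conditions overlapped for *KDM2A*, and it missed the threshold without DMSO replicate 2 or mocetinostat replicate 1 or 3 (log2FC -0.21, -0.20, and -0.16). It also missed it with DESeq2 (adjusted p = 0.0533), RLE size factors (0.0735), library size only (0.0672), and thinning (0.33). *KDM4A* fell with a log2FC of -0.54 (SE 0.14, adjusted p = 4.25e-04), although 40.2% of its exons are shared with another annotated gene on the same strand. *KDM4B* and *KDM4C*, demethylases of lysines 9 and 36 like *KDM4A*, and *KDM6B*, the demethylase of lysine 27, had log2FC values of -0.03, -0.11, and 0.01 (adjusted p = 0.836, 0.562, and 0.951).

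In the DNA methylation genes, 5 of 7 fell, *DNMT3B* rose, and *TET1* did not pass. The number that fell was 3 with DESeq2, where *UHRF1* (adjusted p = 0.0633) and *TET2* (0.0515) missed the threshold, and 2 after thinning, where *UHRF1* (0.34), *TET2* (0.123), and *DNMT3A* (0.0949) did. *DNMT3B* (ENSG00000088305, chromosome 20 of GRCh38 from 32762385 to 32809359) had 20.4, 25.4, and 21.8 CPM in DMSO replicates 1, 2, and 3 and 45.003, 46.48, and 46.002 CPM in mocetinostat replicates 1, 2, and 3. The treated samples were almost equal and 2.05-fold above the controls, with a log2FC of 1.04 (SE 0.16, adjusted p = 2.42e-08). *DNMT3A*, the other de novo enzyme, had 20.7, 22.7, and 29.3 CPM with DMSO and 18.6, 8.68, and 12.8 CPM with mocetinostat, all treated samples below the controls but with only 14 counts in mocetinostat replicate 2, and a log2FC of -0.72 (SE 0.21, adjusted p = 0.00176). Without mocetinostat replicate 1, its log2FC was -1.13. *DNMT1*, the maintenance enzyme and one of the most abundant members, had 389.7, 428, and 431 CPM with DMSO and 292, 278, and 303 CPM with mocetinostat and a log2FC of -0.51 (SE 0.08, adjusted p = 3.33e-08). *UHRF1*, its partner at replicated DNA, had 284, 351, and 386 CPM with DMSO and 305, 310.5, and 276 CPM with mocetinostat; the conditions overlapped, DMSO replicate 1 was the lowest control, and the log2FC of -0.19 (SE 0.09, adjusted p = 0.0411) was just past the test. Its log2FC was -0.33 without DMSO replicate 1, and it missed the threshold without DMSO replicate 2 (-0.20), DMSO replicate 3 (-0.11), mocetinostat replicate 1 (-0.23), or mocetinostat replicate 3 (-0.16). Of the TET enzymes, *TET3* had 68.1, 70.2, and 73.7 CPM with DMSO and 49.4, 47.1, and 43.9 CPM with mocetinostat and a log2FC of -0.58 (SE 0.13, adjusted p = 4.88e-05), and *TET2* had 36.1, 28.1, and 31.8 CPM with DMSO and 17.2, 32.2, and 18.2 CPM with mocetinostat and a log2FC of -0.62 (SE 0.18, adjusted p = 0.00253), where mocetinostat replicate 2 lay within the controls. Without mocetinostat replicate 1, the log2FC of *TET2* was -0.42 and missed the threshold. *TET1* had 15.02, 12.1, and 11.2 CPM with DMSO and 15.7, 6.82, and 12.8 CPM with mocetinostat, overlapping, with a log2FC of -0.02 (SE 0.24, adjusted p = 0.947). The median of the 7 genes was -0.51, but 0.02 under *GAPDH* scaling, where no gene fell and *DNMT3B* and *UHRF1* rose.

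The 3 arginine methyltransferases fell, 2 of them also under *GAPDH* scaling. *PRMT5* (ENSG00000100462, chromosome 14 of GRCh38 from 22920525 to 22929408), which places symmetric dimethylarginine on histones and splicing proteins, had 159, 161, and 159 CPM in DMSO replicates 1, 2, and 3 and 83.46, 78.1, and 74.6 CPM in mocetinostat replicates 1, 2, and 3. The controls were nearly equal, with an SD of 0.860 CPM (n = 3), and the 2.01-fold lower level had a log2FC of -1.01 (SE 0.10, adjusted p = 5.42e-14). *PRMT1*, which places most of the asymmetric mark, had 235, 239, and 249 CPM with DMSO and 114, 139, and 114 CPM with mocetinostat and a log2FC of -0.995 (SE 0.09, adjusted p = 2.16e-15), just short of the fold threshold that *PRMT5* just passed. *CARM1*, a coactivator of transcription factors, had 152, 182, and 174 CPM with DMSO and 100.1, 140.1, and 118 CPM with mocetinostat and a log2FC of -0.53 (SE 0.10, adjusted p = 6.06e-06), which was close to 0 under *GAPDH* scaling. On the other strand, *PRMT5-AS1* overlaps 28.2% of the exonic bases of *PRMT5*, and *YIPF2* overlaps 20.2% of those of *CARM1*.

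**Figure D2:**
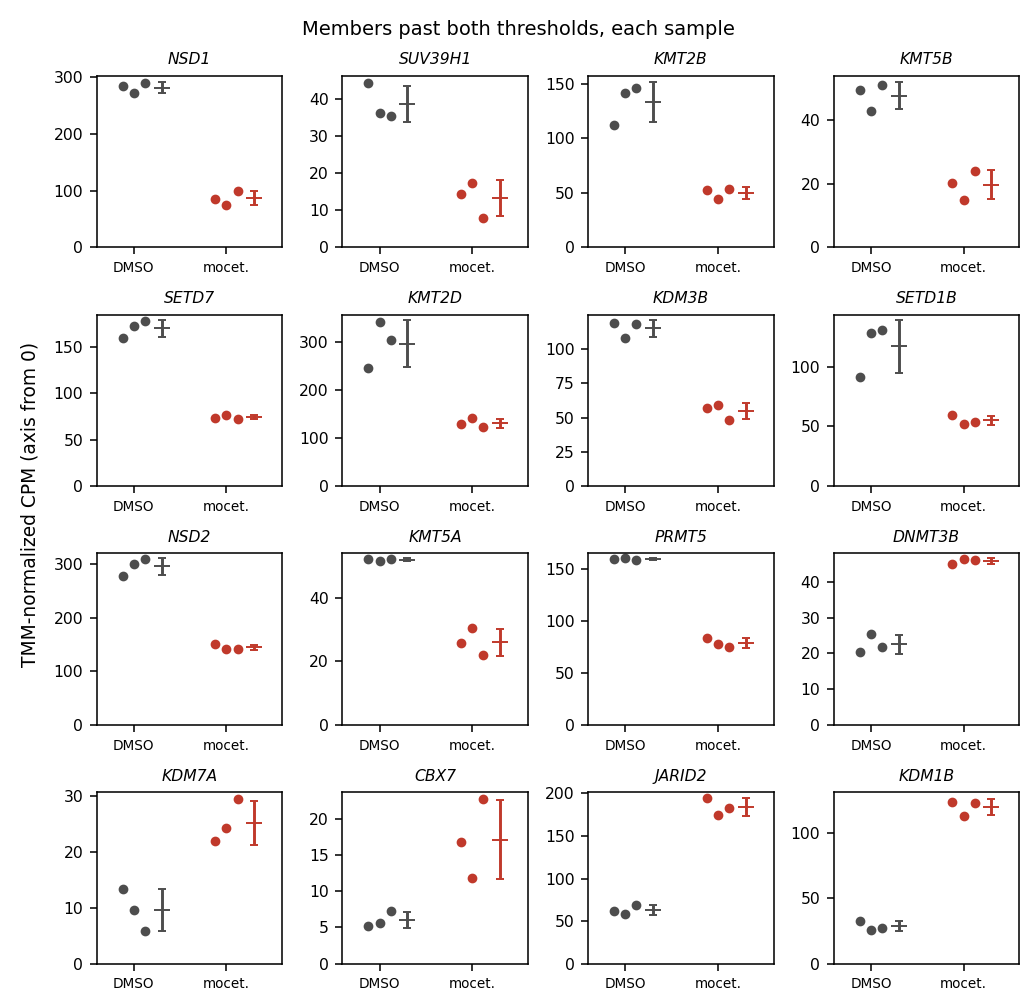
TMM-normalized CPM (y axis, starting at 0) of the 16 members past both thresholds in each of the 3 DMSO-treated (gray) and 3 mocetinostat-treated (red) samples; the bar beside the points is the mean with its SD. In each panel the conditions do not overlap, which says little because the genes were chosen by these thresholds in the same samples. After treatment 11 genes were lower and 5 (DNMT3B, KDM7A, CBX7, JARID2, KDM1B) higher, with NSD1 near 282 CPM with DMSO and 87.2 CPM with mocetinostat. Scaling to GAPDH raised log2 fold changes by a median of 0.54, too little to change the sign of genes chosen for an absolute value over 1.

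Ratios between related members within a sample do not depend on how the libraries are scaled, so 9 such differences of log2 CPM were compared between conditions with an exact two-sided permutation test over samples. The smallest p that 3 samples against 3 can give is 0.1, which is 0.18 after adjustment over the 9 differences, so none could pass a threshold of 0.05. *KDM5B* minus *KDM5A* was -0.99, -0.87, and -0.84 in the DMSO-treated samples and 0.16, 0.20, and 0.07 in the mocetinostat-treated samples, a change of 1.04 with a small spread in both conditions. The gene of the pair with more reads was *KDM5A* in every control and *KDM5B* in every treated sample. Per kilobase of exons, *KDM5A* had the higher mean in both conditions. The means were 14.32 and 3.702 CPM per kilobase for *KDM5A* and *KDM5B* with DMSO, and 7.717 and 4.118 with mocetinostat. *DNMT3B* minus *DNMT3A* was -0.02, 0.16, and -0.42 with DMSO and 1.26, 2.37, and 1.81 with mocetinostat. This change of 1.91 was the largest of the 9, and similar read counts gave way to a clear excess of *DNMT3B* reads. Per kilobase of exons, *DNMT3B* had the higher mean already with DMSO, at 3.276 against 1.759 CPM per kilobase. With mocetinostat the means were 6.665 and 0.9714. *EZH2* minus *EZH1* was 1.36, 1.35, and 1.47 with DMSO and 1.55, 2.35, and 1.85 with mocetinostat, *UHRF1* minus *DNMT1* -0.46, -0.29, and -0.16 and 0.06, 0.16, and -0.13, and *CBX2* minus *CBX7* 2.95, 3.22, and 3.02 and 2.12, 2.79, and 1.79. In these 5 pairs the conditions did not overlap and the exact permutation p was 0.1. The conditions overlapped for *KMT5A* minus *KMT5B* (exact permutation p = 0.6), *SUV39H1* minus *SUV39H2* (p = 0.3), *DNMT1* minus *DNMT3A* (p = 0.3), and *TET1* minus *TET3* (p = 0.4). The share of pairs without overlap among other genes was not computed. Of all single genes tested, 32.8% did not overlap and were lower, and 33.7% did not overlap and were higher. The SDs were larger with mocetinostat for the pairs with a gene of few counts, up to 0.68 for *SUV39H1* minus *SUV39H2*.

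**Figure D3:**
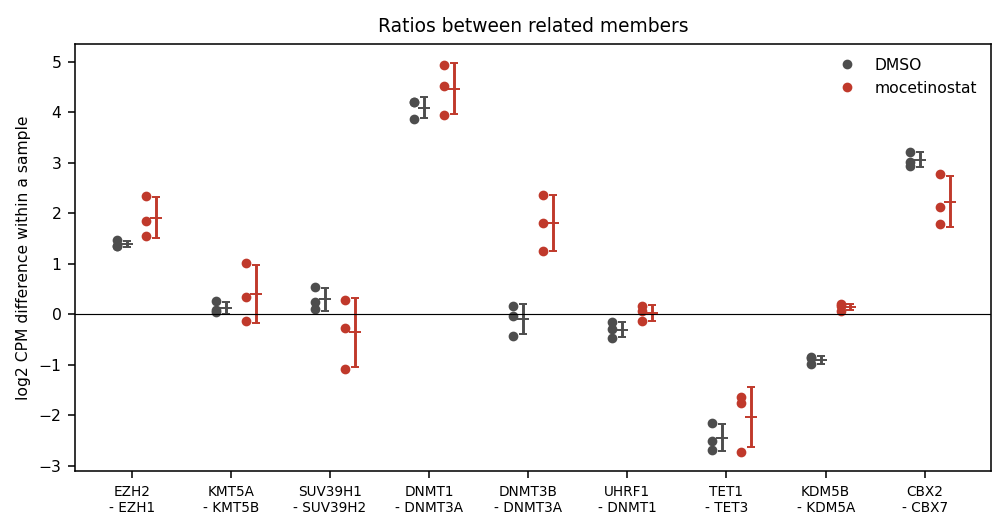
Difference of log2 CPM between 2 related members within each sample (y axis) for 9 pairs (x axis), with DMSO-treated samples in gray and mocetinostat-treated samples in red; the bar beside the points is the mean with its SD (n = 3). The red points lie apart from the gray points for EZH2 and EZH1, DNMT3B and DNMT3A, UHRF1 and DNMT1, KDM5B and KDM5A, and CBX2 and CBX7, and overlap them in the other 4 pairs. How often pairs of other genes lie apart was not computed.

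Levels of different genes were set side by side per length, as CPM per kilobase of the exons that GENCODE release 44 gives for a gene. *UHRF1* was the highest member with DMSO, at 66.2 ± 10.1 CPM per kilobase (SD, n = 3), followed by *PRMT1* at 50.2 ± 1.52 and *PRMT5* at 48.7 ± 0.263, which differed by less than their spread, *CARM1* at 38.3 ± 3.59, *DNMT1* at 27.1 ± 1.5, and *CBX6* at 24.7 ± 1.55. The lowest were *CBX7* at 0.804 ± 0.145, *SETDB2* at 1.01 ± 0.172, and *KDM7A* at 1.02 ± 0.395. With mocetinostat *UHRF1* was still first at 57.8 ± 3.54, followed by *JARID2* at 29.47 ± 1.65, *CBX6* at 29.1 ± 3.48, *CARM1* at 27.02 ± 4.53, and *PRMT1* at 25.49 ± 2.99 CPM per kilobase; *JARID2* and *CBX6* differed by less than their spread. *JARID2* and *KDM1B* had 10.1 ± 0.883 and 5.12 ± 0.650 with DMSO, and *KDM1B* reached 21.3 ± 1.10 with mocetinostat. The lowest with mocetinostat were *DNMT3A* at 0.971 ± 0.363, *SETDB2* at 1.06 ± 0.466, and *TET1* at 1.23 ± 0.470. These levels rest on one length per gene, whichever transcript the cells used.

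Other genes of the same pathways were then read from a list of 84 that are not members: further Polycomb subunits, the subunits shared by lysine 4 complexes, HP1 proteins, the remaining lysine and arginine methyltransferases and demethylases, readers of methylated DNA, and enzymes of methyl donor metabolism. Of these, 81 were tested, 41 fell and 10 rose, 12 as DRGs and 4 as URGs, with a median log2FC of -0.32. Under *GAPDH* scaling 17 fell, 33 rose, and the median was 0.22. Over all genes tested, without *GAPDH* scaling, the median was -0.0021, 31.4% fell, 32.9% rose, 8.18% were DRGs, and 20.2% were URGs. Of the tested genes of the list, 50.6% fell, 12.3% rose, 14.8% were DRGs, and 4.94% were URGs. In the list, 9 of 13 further PRC1 genes fell and 4 rose, and all 3 HP1 genes, which bind methylated lysine 9, and all 3 genes of the complex that removes the PRC1 ubiquitin mark fell; under *GAPDH* scaling 4 of the PRC1 genes fell, 4 rose, and none of the HP1 genes passed. *PHF19*, which links PRC2 to chromatin, had the lowest log2FC of the list, with 113, 114, and 121 CPM with DMSO and 16.45, 11.2, and 18.6 CPM with mocetinostat. Every treated sample was far below every control, and the level was 7.25-fold lower with a log2FC of -2.86 (SE 0.15, adjusted p = 2.12e-28). *PHF2*, a demethylase of lysine 9 related to *PHF8* and *KDM7A*, had 83.4, 103, and 105 CPM with DMSO and 28.9, 22.9, and 25.7 CPM with mocetinostat and a log2FC of -1.86 (SE 0.14, adjusted p = 6.71e-20). *HCFC1*, a subunit of SETD1 and KMT2 complexes, had 487, 579.9, and 557 CPM with DMSO and 156, 154, and 147 CPM with mocetinostat and a log2FC of -1.83 (SE 0.08, adjusted p = 4.56e-31). In both genes the conditions lay well apart. *ZBTB38*, a reader of methylated DNA, had a log2FC of -1.70 (SE 0.09, adjusted p = 1.65e-28), *L3MBTL2*, of a PRC1 variant, a log2FC of -1.54 (SE 0.17, adjusted p = 1.32e-12), and *MBD3*, a subunit of an HDAC-containing remodeling complex, a log2FC of -1.496 (SE 0.14, adjusted p = 3.32e-15). The 4 URGs were *MECOM*, *PRDM1*, *HR*, and *EPOP*. *MECOM*, which encodes a transcription factor with a methyltransferase-like domain, was nearly absent from the controls, with at most 2 reads per library, and reached 44, 16, and 15 reads after treatment; measured against a floor of 3 counts per library, it was at least 18.6-fold higher. *PRDM1* held 5 to 8 counts in the controls and 12 to 34 counts in the shallower treated libraries, a log2FC of 2.87 (SE 0.48, adjusted p = 3.13e-07). *HR*, a demethylase of lysine 9, had 35.8, 41.6, and 40.7 CPM with DMSO and 83.7, 72.51, and 84.1 CPM with mocetinostat and a log2FC of 1.05 (SE 0.13, adjusted p = 3.40e-11), and *EPOP*, an accessory subunit of PRC2 like *JARID2*, had 14.2, 11.9, and 13.7 CPM with DMSO and 28.9, 24.8, and 26.1 CPM with mocetinostat and a log2FC of 1.01 (SE 0.19, adjusted p = 4.88e-06). In these genes every treated sample lay above every control, but the last 2 were close to the fold threshold. *EPOP* was not a URG with DESeq2 (log2FC 0.97), without a filter (0.76), with glmTreat, after thinning (0.99), or without DMSO replicate 2 (0.91), DMSO replicate 3 (0.999), or mocetinostat replicate 1 (0.92). *HR* was not a URG without a filter (0.79), with glmTreat, or without DMSO replicate 1 (0.96) or mocetinostat replicate 1 (0.998). Under *GAPDH* scaling *L3MBTL2* and *MBD3* were no longer DRGs.

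**Figure D4:**
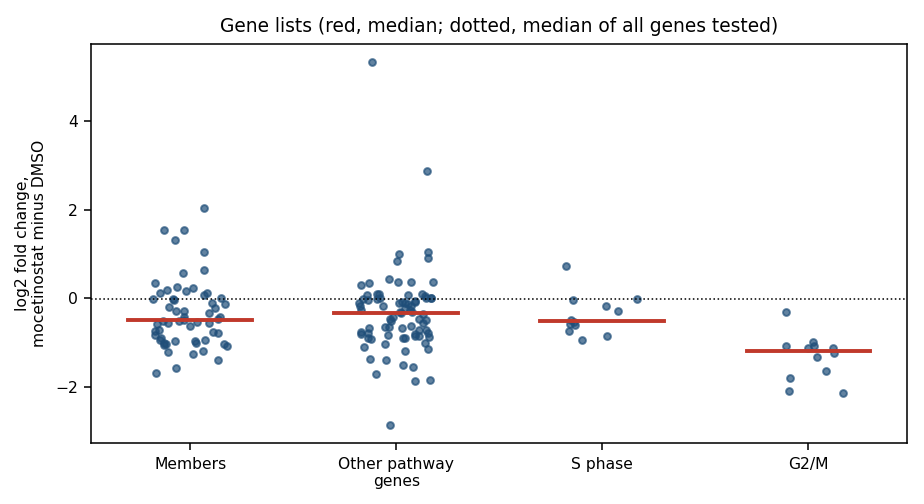
Log2 fold change (y axis, mocetinostat minus DMSO) of each tested gene of 4 lists (x axis); red lines are the medians, and the dotted line is the median of all 13966 genes tested. The medians are -0.48 for the 59 members, -0.32 for 81 other pathway genes, -0.51 for 12 S phase genes, and -1.17 for 12 G2/M genes; with GAPDH scaling they become 0.06, 0.22, 0.03, and -0.64.

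The 16 members past both thresholds were followed through the alternative treatments of the counts, and all kept their sign in each. Because they were chosen for an absolute log2 fold change over 1, the kept signs say little. Tested for a change beyond the fold threshold itself, with edgeR's glmTreat, 8 passed: *NSD1* (adjusted p = 6.78e-10), *SUV39H1* (0.00354), *KMT2B* (0.00118), *SETD7* (0.0415), *KMT2D* (0.0446), *KDM1B* (2.19e-12), *JARID2* (5.62e-07), and *CBX7* (0.0282). Of all genes tested, 3.33% passed glmTreat as lower and 14.8% as higher, against 8.47% and 5.08% of the members. Under *GAPDH* scaling 7 kept the call, the DRGs *NSD1* and *SUV39H1* and the 5 URGs. An upward shift cannot bring a URG below the fold threshold, so only the 11 DRGs could lose the call there. After every library was thinned to the depth of the shallowest one, 10 kept the call. Counts of DRGs and URGs were 2 and 7 under *GAPDH* scaling, 20 and 4 without a filter, and 5 and 5 after thinning, compared with 11 and 5 as reported. Among all genes tested under the same setting, DRGs and URGs made up 2.03% and 31.7% with *GAPDH* scaling (members 3.39% and 11.9%). After thinning they made up 7.57% and 18% (members 8.47% and 8.47%). Without a filter they made up 5.23% and 7.9% (members 33.9% and 6.78%), but of 40504 genes, down to those with 1 count, instead of 13966. All members are above the filter, so the shares without it are not of like genes. With DESeq2, the tool of the study's methods, 13 members were DRGs and 4 were URGs, and *DNMT3B* was not among them. These were 22% and 6.78% of the members, against 5.29% and 15.2% of the 22149 genes that DESeq2 tested. Those 22149 include genes below the filter that all members passed, so these shares are not of like genes either. *DNMT3B* also lost the call without a filter, and *PRMT5* with RLE size factors and with library size only. Further calls close to the fold threshold were lost when single samples were left out: *DNMT3B* without DMSO replicate 1 or 3, *SETD1B* without DMSO replicate 3, and *KMT5A* and *PRMT5* without mocetinostat replicate 3.

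**Figure D5:**
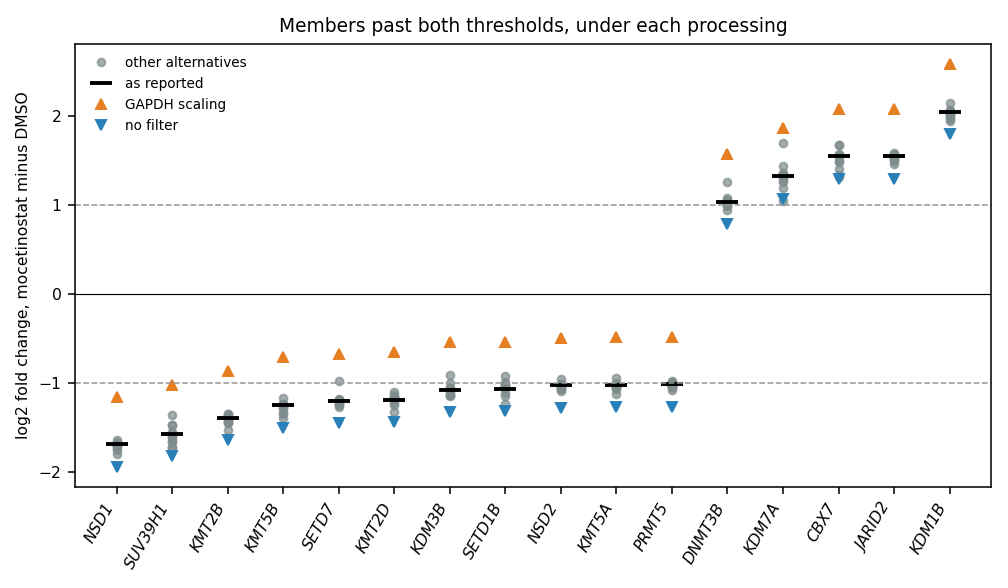
Log2 fold change (y axis, mocetinostat minus DMSO) of the 16 members past both thresholds (x axis) as reported (black bar), with GAPDH scaling (orange), without an expression filter (blue), and under 11 other alternatives (gray); dashed lines mark -1 and 1. GAPDH scaling moved all genes up and the lack of a filter moved all down. With GAPDH scaling NSD1 and SUV39H1 stayed past the threshold, as did the 5 URGs, which an upward move could not bring below it.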

How the data were processed

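Total RNA of TC28a2 cells was read by ribodepleted RNA-Seq in 6 samples, 3 per condition. Per the methods of the study, the authors trimmed the reads, removed those of ribosomal RNA, aligned the rest to GRCh38 (Ensembl annotation) with STAR 2.6.1d, and counted them per gene with featureCounts 1.6.4; the table was deposited as raw counts, without normalization. The strand setting and the treatment of reads with several matches are not given in the sources used here, so values of genes that overlap on either strand are uncertain. The authors' own test used DESeq2 1.20.0.

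Groups were taken from the sample labels. Genes were kept with filterByExpr (minimum count 10), and 13966 of 60623 genes were fitted with edgeR 4.0.16 in R 4.3.3 (TMM factors, quasi-likelihood test of treatment alone, Benjamini-Hochberg adjustment over all genes). The thresholds were an adjusted p under 0.05 and, for DRGs and URGs, also an absolute log2 fold change over 1. The SE of a log2 fold change was taken from its F statistic. CPM values used TMM-scaled library sizes, and log2 CPM for differences within families used a prior count of 2. Total counts per sample were 1619344 to 11031132, and the biological coefficient of variation was 9.3%. The 6 pairs of samples of the same condition differed by more than sampling noise (chi-square per degree of freedom 1.96 to 7.19).

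Alternatives were DESeq2 1.42.0, other size factors, scaling to *GAPDH*, no filter, glmTreat, the replicate number as a block, thinning, and leaving out each sample. Positions, exon lengths, and overlaps came from GENCODE release 44 on GRCh38, a later annotation than the one used for counting, and promoters from RefSeq (GRCh38.p14). The fitting was tested on simulated data. The members and gene lists were chosen with earlier results of these data known. Values in every sample are given for members past both thresholds, for the highest and the lowest of each role, and for the 9 within-family pairs; of the other pathway genes, up to 6 in each direction past both thresholds are named.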

Additional observations from a re-analysis of the deposited data

How the results depend on the processing

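The counts and medians of the gene lists and the log2FC of each member were recomputed with DESeq2, RLE size factors, library size only, *GAPDH* scaling, no filter, a replicate block, thinning to 1619344 counts, and each of the 6 samples left out, the DRG and URG counts also with glmTreat, and the within-family differences with samples left out, paired, and with other prior counts; levels per kilobase, marker sums, and motif counts had no alternative; the cause of a change was not tested unless stated. Scaling to *GAPDH*, which fell, raised log2FC values: 16 members fell, 21 rose, 2 were DRGs, and the median was 0.062; of the other pathway genes 17 fell, 33 rose, 4 were DRGs, and the median was 0.22; of the S phase and G2/M genes together 13 fell, 5 rose, 4 were DRGs, 1 was a URG, and the median was -0.37. Without a filter, which moved the median of all shared genes by -0.25, 6 members rose, 20 were DRGs, and the medians were -0.73 for members, -0.55 for other pathway genes (26 DRGs), and -1.15 for cell-cycle genes. With glmTreat, DRGs and URGs were 5 and 3 of the members, 7 and 2 of the other pathway genes, and 5 DRGs of the cell-cycle genes. Of all genes tested, 3.33% were DRGs and 14.8% were URGs with glmTreat. After thinning, 5 members were DRGs and the medians were -0.40 for members and -0.82 for cell-cycle genes; DESeq2 gave a member median of -0.51.

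With 1 sample left out, 33 to 36 members fell, 8 to 10 rose, 10 to 14 were DRGs, 4 to 5 were URGs, and the median ran from -0.53 to -0.45; the median ran from -0.38 to -0.34 for the other pathway genes, of which 2 to 4 were URGs, and from -0.96 to -0.88 for the cell-cycle genes. Of all genes tested in these fits, 7.97% to 8.87% were DRGs and 19.9% to 21.7% were URGs. The difference *KMT5A* minus *KMT5B* changed by -0.021 to 0.55, the lowest value without mocetinostat replicate 2. Members that changed sign with a sample left out, with their range over the 6 fits, were *EED* (-0.088 to 0.019), *RNF2* (-0.010 to 0.32), *SETDB2* (-0.42 to 0.30), *KMT5C* (-0.10 to 0.23), *KDM4B* (-0.14 to 0.062), *KDM6B* (-0.19 to 0.079), *TET1* (-0.34 to 0.15); none passed the test as reported. *EZH1* and *BMI1* passed with some samples left out.

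Single members changed sign as follows. With *GAPDH* scaling the log2FC values were *EZH1* 0.26, *EED* 0.52, *SUZ12* 0.25, *BMI1* 0.035, *KMT2E* 0.062, *SETDB2* 0.41, *EHMT2* 0.12, *NSD3* 0.077, *DOT1L* 0.10, *KDM2A* 0.32, *KDM3A* 0.21, *KDM4B* 0.50, *KDM4C* 0.43, *DNMT1* 0.016, *UHRF1* 0.33, *TET1* 0.52, *CARM1* 0.00068. Without a filter they were *EZH2* -0.13, *RING1* -0.14, *RNF2* -0.070, *CBX6* -0.023, *KMT5C* -0.17, *KDM1A* -0.0023, *KDM5B* -0.092, *KDM6B* -0.24. *EED* was 0.0075 with RLE factors and 0.0048 with library size only, *KDM6B* -0.038 with DESeq2 and -0.080 after thinning, and *TET1* 0.020 after thinning.

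Samples share replicate numbers, but same-numbered samples did not deviate together (Pearson r across genes of 0.0078, 0.012, -0.016), and not every sample correlated best with its own number. With the number as a replicate block, 35 members fell and 10 rose, *UHRF1* alone missing the threshold, the DRG and URG counts were 11 and 5, and the median was -0.49. For the 9 within-family differences, the mean change between same-numbered samples equals the unpaired change by arithmetic. Pairing was therefore not tested for them. Prior counts of 0.5 and 5 changed no sign of these 9. The treated libraries held as few as 1619344 counts, so that genes of low level are less precise there: *DNMT3A*, *SETDB2*, and *CBX7* held 14, 16, and 19 reads in mocetinostat replicate 2.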
